A study of Mus musculus with 13 samples.

Results

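The Kupffer cell and macrophage markers were 10 genes, Csf1r, Cd5l, Lyz2, Vsig4, Ctss, Clec4f, Marco, Cd68, C1qa and C1qb, of the 19938 genes with a probe set annotated to a single gene symbol. For a gene with several such probe sets, that of highest mean stood for the gene, but each of the 10 markers had 1. All 10 were among the 14953 genes tested after genes with a mean level below the 25th percentile had been left out.

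Liver RNA of 14-day-old mice was measured on 13 single-colour arrays. Livers were taken 24 h after diethylnitrosamine (DEN), a carcinogen that hepatocytes convert into a DNA-alkylating agent, injected into the peritoneum at 20 mg/kg. The groups were wild type with DEN (2 arrays, labelled replicates 3 and 4), heterozygous with DEN (2 arrays, replicates 3 and 4), N750F with DEN (5 arrays), knockout with DEN (2 arrays) and untreated wild type (2 arrays). The wild type mice of either treatment carried floxed Rb1 and no Cre. The knockout mice carried floxed Rb1 and Cre. The heterozygous mice carried 1 functional allele, 1 floxed allele and Cre, and a second label tags these samples LOH. For the N750F mice the sample label names the mutant Rb1 protein alone. The albumin promoter, used by hepatocytes and not by Kupffer cells, drove Cre, and the series' text describes the untreated mice as saline-injected littermates. Every comparison with untreated liver of a genotype other than wild type therefore mixes genotype with treatment, and all of them share the same 2 untreated arrays.

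Kupffer cells are the resident macrophages of the liver. They line the sinusoids, depend on signalling through the CSF1 receptor, Csf1r, and take bacteria, worn-out red cells and debris from the blood with scavenger and complement receptors. Cargo is digested in lysosomes by enzymes such as cathepsin S, and the same cells are a main source of C1q, the recognition subunit of the classical complement pathway. After liver injury Kupffer cells can be lost, change their identity genes or be replaced by monocytes from the blood.

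Promoter windows are shown for 5 of the markers so that the genes compared below can be told apart by sequence: 3 that differed between groups after DEN (Vsig4, Lyz2, Ctss), Cd5l, and the complement gene C1qb. The windows were taken from RefSeq promoters on GRCm38.p6, which held entries for 8 of the 10 markers, all but Csf1r and C1qa. Each line gives the 200 bases that end just before the annotated start, in the direction of the gene, with capitals where the core GAGGAA recognised by the macrophage factor PU.1 was found on either strand.
Vsig4 (chrX:96293439-96293638, minus strand): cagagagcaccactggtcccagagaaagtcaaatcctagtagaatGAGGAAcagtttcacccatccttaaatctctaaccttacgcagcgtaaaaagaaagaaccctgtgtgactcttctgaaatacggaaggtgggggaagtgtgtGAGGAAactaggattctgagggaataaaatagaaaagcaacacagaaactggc
Cd5l (chr3:87357681-87357880, plus strand): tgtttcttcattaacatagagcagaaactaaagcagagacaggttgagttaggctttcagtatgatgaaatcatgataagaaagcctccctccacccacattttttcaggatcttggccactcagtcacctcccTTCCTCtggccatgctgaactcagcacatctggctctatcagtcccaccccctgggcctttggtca
Lyz2 (chr10:117282273-117282472, minus strand): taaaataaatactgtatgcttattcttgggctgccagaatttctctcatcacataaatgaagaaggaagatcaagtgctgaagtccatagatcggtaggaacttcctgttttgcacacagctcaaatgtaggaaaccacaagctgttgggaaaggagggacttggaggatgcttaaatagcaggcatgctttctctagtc
Ctss (chr3:95526586-95526785, plus strand): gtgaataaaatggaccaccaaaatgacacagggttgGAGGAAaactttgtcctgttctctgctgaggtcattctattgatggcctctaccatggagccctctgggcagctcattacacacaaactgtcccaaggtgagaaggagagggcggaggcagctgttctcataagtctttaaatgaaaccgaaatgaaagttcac
C1qb (chr4:136886201-136886400, minus strand): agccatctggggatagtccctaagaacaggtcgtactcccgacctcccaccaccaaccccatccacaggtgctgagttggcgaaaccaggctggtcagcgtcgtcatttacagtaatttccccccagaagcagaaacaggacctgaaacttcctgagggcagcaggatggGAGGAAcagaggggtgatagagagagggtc
Over the full windows of 300 bases, GAGGAA on either strand was found in 6 of the 8 markers, against 28.3% of all 32851 promoters. Vsig4 held it at -155 and -53 from the start, Cd5l at -66, Ctss at -164 and 1, Marco at -146, C1qb at -30, and Cd68 at -225 and 30. Lyz2 and Clec4f held none. The E-box CACGTG was in none of the 8, against 7.15% of all promoters. These matches describe letters only and do not show binding.

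Values below are log2 of the quantile-normalized intensity plus 16, which compresses changes of dim genes. The arrays came from 2 runs named in the labels' raw array names, called batch 1 (9 arrays) and batch 2 (4 arrays: replicate 4 of the N750F, heterozygous and wild type DEN groups, and N750F replicate 5). The median intensity per array, as deposited, lay between 76.9 and 82.99 for batch 1 and between 48.2 and 73.3 for batch 2. The limma model held the 5 groups and the batch, and a gene was called at an adjusted p below 0.05 over all genes tested. Changes are given ± SE. Except where given within a batch, changes and differences come from this model. They allow for batch and can differ from the gap between the levels printed beside them. The mean Y-linked level, high in males, was 4.46 and 4.61 on the wild type DEN arrays, 9.41 and 9.34 on the heterozygous arrays, 9.29 on 1 N750F array and 4.44 to 4.57 on the other 4, and 9.45 and 9.05 on the knockout arrays, against 8.91 and 4.44 on the untreated arrays. Heterozygous replicate 4 also read 8.05 for Xist, the transcript of the inactive X, between the 5.64 to 6.16 of the other arrays with a high Y-linked level and the 12.31 to 12.78 of those with a low one. Knockout array 2 carried skeletal muscle transcripts, with a mean level of 8.16 over 4 muscle genes against 6.79 on knockout array 1. Rb1 itself read 7.92 and 6.57 on the knockout arrays. It read 8.04 and 8.01 on the wild type DEN arrays and 7.27 and 7.15 on the untreated arrays. These values do not check the knockout label, since the position of the Rb1 probes is unknown here. The group is called knockout-labelled below.

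Liver as the source was borne out by albumin, whose level lay between 12.79 and 13.01 on all 13 arrays. The markers themselves were measured on every array, but their mean levels differed. The mean over the 10 markers was 7.24 and 7.14 on the wild type DEN arrays, 7.65 and 7.40 on the heterozygous DEN arrays, 7.84 to 8.30 on the 5 N750F DEN arrays, and 7.86 and 8.27 on the knockout-labelled DEN arrays, against 8.62 and 8.23 on the untreated arrays. The wild type and heterozygous DEN arrays were therefore the 4 lowest.

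**Figure D1:**
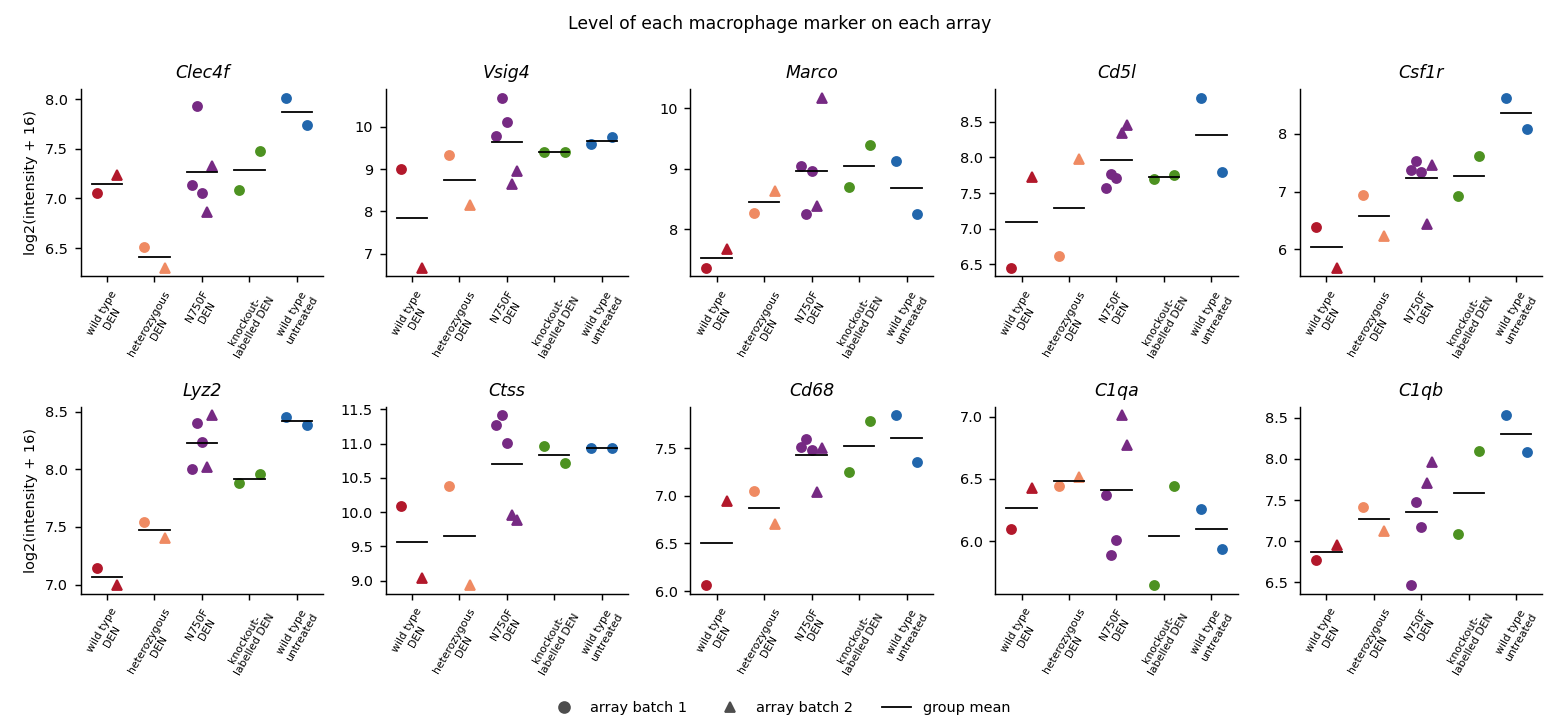
Level of each marker (log2 of intensity plus 16, vertical axis, 1 panel per gene with its own scale) on every array of the 5 groups. Points are arrays, circles batch 1 and triangles batch 2, and bars are group means. Csf1r is the marker for which all 11 DEN arrays lie below both untreated arrays, whose levels are 8.62 and 8.08.

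After DEN, wild type livers had lower levels of macrophage markers than untreated livers, but the markers did not move by one amount. The 3 members called were all lower: Csf1r, the CSF1 receptor, Cd5l, a scavenger-receptor-like protein secreted by Kupffer cells, and Lyz2, lysozyme M. This is 3 of 10, where 0.388% of all genes tested were called lower. The markers were chosen with earlier results of these data known, so the 2 shares do not test them as a set. All 10 estimates were below 0, as were 51.9% of all genes, with a median log2 change of -1.21 beside -0.02 over all genes. They ran from -2.03 for Csf1r to -0.10 for C1qa, the dimmest of the 10. The sign of C1qa depended on the batch term, without which its estimate was 0.17 and 9 of the 10 were below 0. Within batch 1 its difference from the untreated mean was -0.0006. Both wild type DEN arrays lay below both untreated arrays for 9 of the 10 markers, all but C1qa, and the same was true of 23.5% of all genes. In whole liver RNA, fewer macrophages and less of a transcript in each macrophage cannot be told apart.

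Among the genes that set Kupffer cells apart from other macrophages, Cd5l stood at 6.45 and 7.73 in wild type DEN livers, against 8.84 and 7.79 in untreated livers. Its groups did not overlap, though by a narrow gap, and it fell by 1.72 ± 0.33 (adjusted p = 0.0364). The plain group means of Cd5l, 7.09 and 8.31, lay closer together than this, and without the batch term Cd5l was not called. Vsig4, the complement receptor that captures C3-coated particles, was at 9.0 and 6.67 in wild type DEN livers, against 9.60 and 9.75 in untreated livers. The lower of the DEN values was that of batch 2, and the change of -1.06 ± 0.34 was not called (adjusted p = 0.187). Marco, a scavenger receptor for bacteria and particles, was at 7.37 and 7.68 in wild type DEN livers, against 9.12 and 8.25 in untreated livers, a change of -1.39 ± 0.51 (adjusted p = 0.240). Its untreated arrays were farther apart than its DEN arrays. Clec4f, a C-type lectin that in mice marks Kupffer cells, was at 7.06 and 7.24 in wild type DEN livers, against 8.02 and 7.74 in untreated livers, a change of -0.65 ± 0.33 (adjusted p = 0.415).

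Among genes shared by macrophages, Csf1r stood at 6.38 and 5.69 in wild type DEN livers, against 8.62 and 8.08 in untreated livers. It had the largest change of the 10 and fell by 2.03 ± 0.36 (95% interval -2.79 to -1.27, adjusted p = 0.0249), which on this scale is a level 0.245 times that of untreated liver. Lyz2 was at 7.14 and 7.00 in wild type DEN livers, against 8.45 and 8.38 in untreated livers, with pairs much closer together than the gap between them. It fell by 1.32 ± 0.25 (adjusted p = 0.0364). Lyz1, a near-identical copy whose transcripts may share probes with Lyz2, changed by -1.42 (adjusted p = 0.131), so the values of the pair may not be independent of each other.

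Neither lysosomal marker was called. Cd68, a glycoprotein of macrophage lysosomes and endosomes, was at 6.06 and 6.95 in wild type DEN livers, against 7.85 and 7.36 in untreated livers, a change of -1.09 ± 0.35 (adjusted p = 0.181). Ctss, cathepsin S, which trims the invariant chain of MHC class II, was at 10.09 and 9.03 in wild type DEN livers, against 10.94 on both untreated arrays, a change of -0.73 ± 0.25 (adjusted p = 0.203). The plain group means of Ctss, 9.56 and 10.94, lay farther apart than this change, which allows for batch. For both genes the groups did not overlap.

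The chains of C1q did not have the same estimates, but the C1qa probe set was dim. C1qb was at 6.77 and 6.96 in wild type DEN livers, against 8.53 and 8.08 in untreated livers, a change of -1.65 ± 0.42 that missed the threshold (adjusted p = 0.0980). C1qc, the remaining chain and no member, was at 8.36 and 9.22 in wild type DEN livers, against 10.89 and 10.06 in untreated livers, a change of -1.82 (adjusted p = 0.0692). C1qa was at 6.10 and 6.43 in wild type DEN livers, against 6.25 and 5.94 in untreated livers, a change of -0.10 with a 95% interval of -0.80 to 0.60 (adjusted p = 0.934). The C1qa probe set covered 5.64 to 7.01 over all 13 arrays.

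The calls in wild type rested on 2 arrays against 2. Over 26 alternatives the call of Cd5l was lost in 17, that of Lyz2 in 15 and that of Csf1r in 8. None of the 3 was called when the Y-linked level entered the model (lowest adjusted p of a marker 0.0594), without quantile normalization (0.0659), with the replicate number as a block in place of the batch term (0.407), or without untreated replicate 1 (0.293), wild type DEN replicate 3 (0.0683) or wild type DEN replicate 4 (0.140), although 9 or all of the 10 estimates stayed below 0 each time. Within batch 1, which held 1 wild type DEN array, the differences from the untreated mean were -1.97 for Csf1r, -1.86 for Cd5l and -1.27 for Lyz2, and batch 2 held no untreated array.

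**Figure D2:**
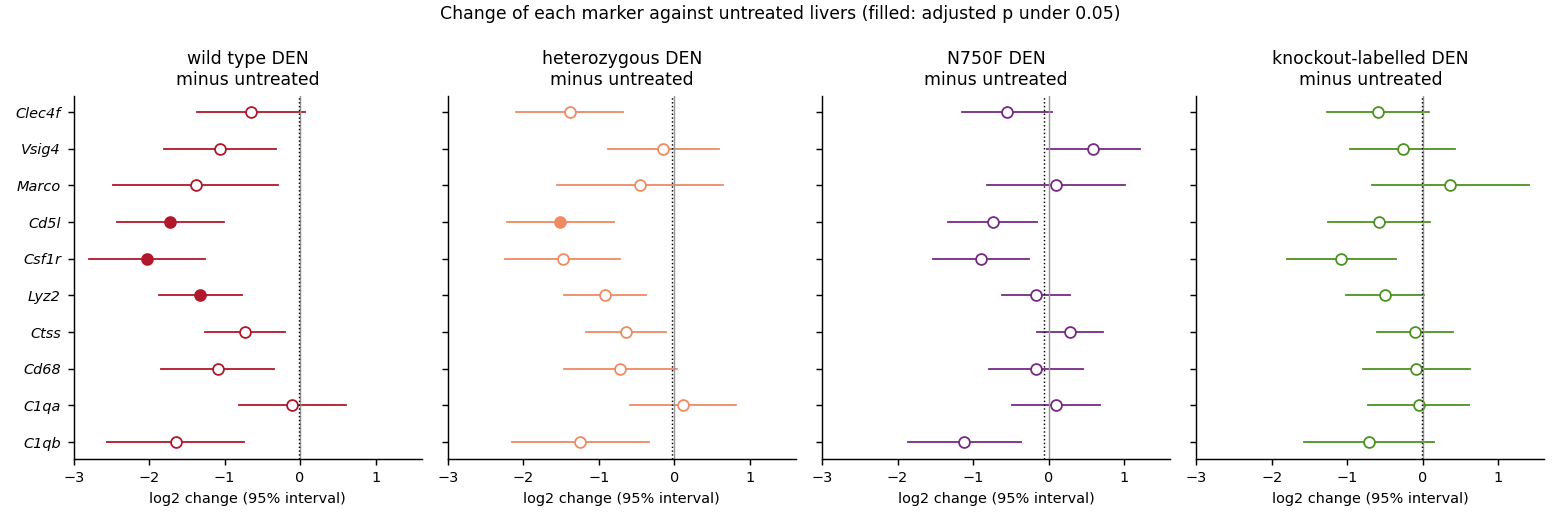
Log2 change of each marker against untreated livers (horizontal axis, with 95% interval) in the 4 DEN groups, 1 panel per group. Filled points have an adjusted p below 0.05, the grey line marks 0 and the dotted line the median of all genes. The markers lie left of 0 in wild type, from -2.03 to -0.10, and on both sides of it in N750F livers.

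In heterozygous livers after DEN the markers were also mostly below untreated livers, and Cd5l was the 1 called. Of the 10 estimates 9 were below 0, with a median of -0.82 beside -0.04 over all genes, and 0.729% of genes were called lower. Cd5l was at 6.62 and 7.98 in heterozygous DEN livers, against 8.84 and 7.79 in untreated livers, so that the arrays overlapped. With batch in the model it fell by 1.51 ± 0.33 (adjusted p = 0.0417), a call lost in 17 of 26 alternatives, among them the fit with no filter on dim genes (adjusted p = 0.0533) and that with the replicate block (adjusted p = 0.557). Both heterozygous arrays were below both untreated arrays for 7 of the 10 markers, against 26.6% of all genes.

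Csf1r and Clec4f came next in the heterozygous livers. Csf1r was at 6.94 and 6.23 in heterozygous DEN livers, against 8.62 and 8.08 in untreated livers, a change of -1.48 ± 0.36 (adjusted p = 0.0573). Clec4f was at 6.52 and 6.30 in heterozygous DEN livers, against 8.02 and 7.74 in untreated livers, a change of -1.39 ± 0.33 (adjusted p = 0.0573). Vsig4 and C1qa changed by -0.15 and 0.11, and the remaining 5 markers lay between -1.25 for C1qb and -0.46 for Marco, none of them called. Both heterozygous arrays had a high Y-linked level, with the Xist reading of replicate 4 given above, and both wild type DEN arrays a low one.

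In N750F livers after DEN no marker was called. There were 6 estimates below 0 and 4 above, near the share of all genes below 0, 55.5%. The median of the markers was -0.17 beside -0.06 over all genes, where 2.34% of genes were called lower and 3.87% higher. C1qb, Csf1r and Cd5l had the lowest estimates. C1qb ranged from 6.47 to 7.96 with a median of 7.48 in N750F DEN livers, against 8.53 and 8.08 in untreated livers, a change of -1.11 ± 0.35 (adjusted p = 0.0772). Csf1r ranged from 6.43 to 7.53 with a median of 7.38 in N750F DEN livers, against 8.62 and 8.08 in untreated livers, a change of -0.90 ± 0.30 (adjusted p = 0.0895). These were the 2 markers for which all 5 N750F arrays lay below both untreated arrays, as did 14.5% of all genes.

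At the other end, Vsig4 ranged from 8.65 to 10.69 with a median of 9.79 in N750F DEN livers, against 9.60 and 9.75 in untreated livers. Its estimate with batch in the model was 0.59 ± 0.29 (adjusted p = 0.245). The 3 N750F arrays of batch 1 read 9.79, 10.69 and 10.13 and the 2 of batch 2 read 8.65 and 8.95, so the sign depended on the batch term, without which the estimate was -0.04. Ctss behaved in the same way, with 11.28, 11.42 and 11.01 on batch 1 and 9.96 and 9.88 on batch 2, and an estimate of 0.28 with the batch term and -0.23 without it. Lyz2 ranged from 8.00 to 8.47 in N750F DEN livers, against 8.45 and 8.38 in untreated livers, a change of -0.17 ± 0.21.

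In knockout-labelled livers after DEN no marker was called. Only 0.00669% of all genes, a single gene, were called lower. Of the 10 estimates 9 were below 0, all but Marco, and their median was -0.38. Csf1r was at 6.92 and 7.62 in knockout-labelled DEN livers, against 8.62 and 8.08 in untreated livers, a change of -1.08 ± 0.34 (adjusted p = 0.287). For 5 of the 10 markers both arrays were below both untreated arrays, beside 21.5% of all genes. Marco was at 8.70 and 9.40 in knockout-labelled DEN livers, against 9.12 and 8.25 in untreated livers. The muscle transcripts of knockout array 2 were present beside these values, and their part in them was not tested.

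Over the mean of the 4 DEN groups, Csf1r and Cd5l were called lower than in untreated liver. Csf1r fell by 1.37 ± 0.27 (adjusted p = 0.0268) and Cd5l fell by 1.14 ± 0.26 (adjusted p = 0.0370), while 0.936% of all genes were called lower. Csf1r was the 1 marker for which all 11 DEN arrays were below both untreated arrays, as 4.77% of all genes were. Its highest DEN array, knockout-labelled array 2, read 7.62, against 8.08 on the lower untreated array. The 10 markers did not share one change over this mean, where C1qa had an estimate of 0.01 and Vsig4 one of -0.22. Neither call remained without untreated replicate 1, where the lowest adjusted p of a marker was 0.493, or with the replicate block, where it was 0.226.

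**Figure D3:**
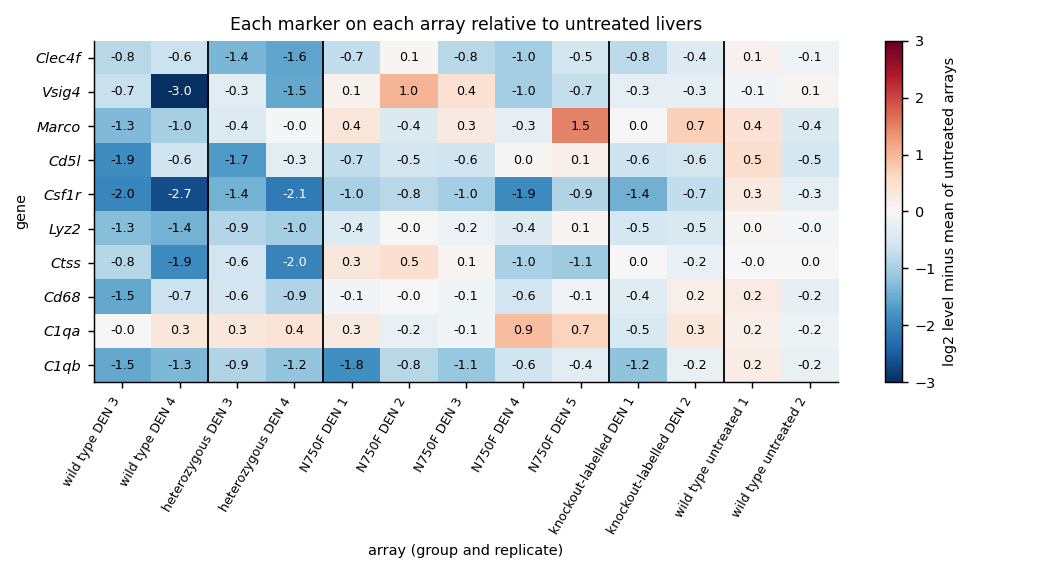
Log2 level of each marker (rows) on each of the 13 arrays (columns, by group and replicate) minus its mean over the 2 untreated arrays. Blue is lower and red higher than untreated, and numbers are the differences. The 2 wild type DEN columns hold 10 and 9 markers below 0, and the 5 N750F columns 6 to 8. The count of 10, on replicate 3, includes C1qa at -0.0006.

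The genotypes were next compared with each other after DEN, where no untreated array enters the difference. N750F livers had higher estimates than wild type livers for all 10 markers, and Lyz2, Vsig4 and Ctss were called. That is 3 of 10, where 1.13% of all genes were called higher, and the choice of markers with earlier results known limits this comparison too. Lyz2 ranged from 8.00 to 8.47 with a median of 8.24 in N750F livers, against 7.14 and 7.00 in wild type livers, a difference of 1.15 ± 0.20 (adjusted p = 0.0126). No N750F array of Lyz2 came near either wild type array. Vsig4 ranged from 8.65 to 10.69 in N750F livers, against 9.0 and 6.67 in wild type livers. It differed by 1.65 ± 0.27 (adjusted p = 0.0100) with batch in the model, although the 2 N750F arrays of batch 2 were below the wild type array of batch 1. Ctss ranged from 9.88 to 11.42 in N750F livers, against 10.09 and 9.03 in wild type livers, a difference of 1.02 ± 0.20 (adjusted p = 0.0223).

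Within batches the 3 called markers kept their sign, as did Csf1r, Cd5l, Marco, Cd68 and C1qb, which were not called. The fit draws on these same differences, so the signs are no separate support for the calls. Lyz2 differed by 1.07 in batch 1 (3 N750F arrays against 1 wild type array) and by 1.25 in batch 2 (2 against 1). Vsig4 differed by 1.20 in batch 1 and 2.13 in batch 2, and Ctss by 1.14 and 0.88. Clec4f, at 0.32 in batch 1 and -0.14 in batch 2, and C1qa, at -0.01 and 0.46, did not keep one sign. With the replicate number as a block in place of the batch term no marker was called (lowest adjusted p 0.0827, for Vsig4), and the 3 differences were 1.06 for Lyz2, 1.55 for Vsig4 and 0.92 for Ctss. Without wild type replicate 4, the wild type array of batch 2, no marker was called either (lowest adjusted p 0.235), and the median difference was 1.11.

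The other markers of this comparison were not called. Marco ranged from 8.25 to 10.18 in N750F livers, against 7.37 and 7.68 in wild type livers, a difference of 1.48 ± 0.41 (adjusted p = 0.101). Csf1r ranged from 6.43 to 7.53 in N750F livers, against 6.38 and 5.69 in wild type livers, a difference of 1.13 ± 0.28 (adjusted p = 0.0684). Cd68 ranged from 7.04 to 7.60 in N750F livers, against 6.06 and 6.95 in wild type livers, a difference of 0.92 ± 0.28 (adjusted p = 0.140). All 5 N750F arrays were above both wild type arrays for these 3 and for Lyz2, 4 of the 10 markers, beside 6.78% of all genes. Cd5l differed by 0.98 ± 0.26 (adjusted p = 0.0950), and C1qb, C1qa and Clec4f by 0.53, 0.20 and 0.10. For Clec4f the 95% interval was -0.47 to 0.67.

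**Figure D4:**
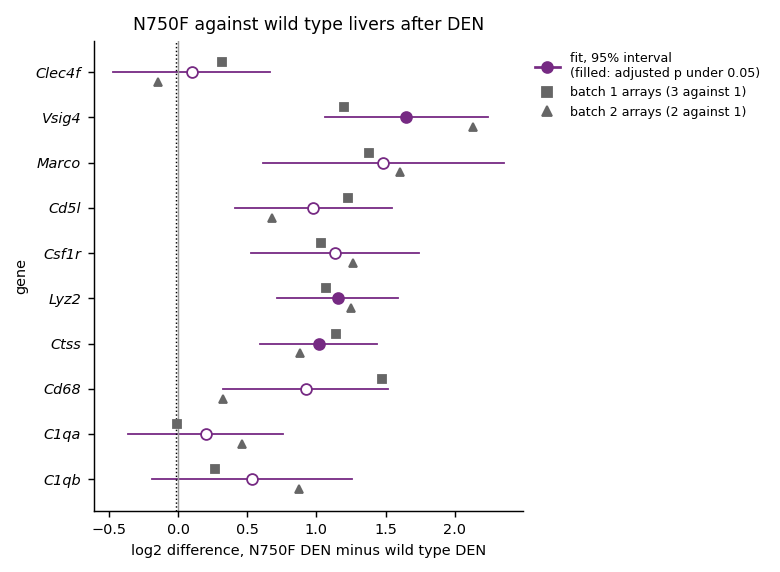
Log2 difference of each marker between N750F and wild type livers after DEN (horizontal axis). Purple points are the fit with its 95% interval, filled where the adjusted p is below 0.05, and grey squares and triangles are plain differences of means within batch 1 and batch 2, with a dotted line at the median of all genes. Lyz2, Vsig4 and Ctss are filled, at 1.15, 1.65 and 1.02.

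Against heterozygous livers, N750F livers had a higher level of Ctss, the 1 marker called, where 1.3% of all genes were called higher. Ctss ranged from 9.88 to 11.42 in N750F livers, against 10.37 and 8.93 in heterozygous livers, a difference of 0.93 ± 0.20 (adjusted p = 0.0291). With the Y-linked level in the model its adjusted p was 0.230, and with the replicate block no marker was called (lowest adjusted p 0.330). Lyz2 came next, at 0.75 ± 0.20 (adjusted p = 0.103), and C1qa, at -0.02, was the only estimate below 0. Clec4f differed by 0.84 ± 0.26 (adjusted p = 0.191), whereas against wild type its difference was 0.10.

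No marker was called in the other comparisons after DEN. Knockout-labelled livers had all 10 estimates above wild type livers, from 0.05 for C1qa to 1.75 ± 0.51 for Marco (adjusted p = 0.309), and 0.0468% of all genes were called higher. Both knockout arrays had a high Y-linked level and both wild type DEN arrays a low one, so genotype and sex cannot be told apart here, and with the Y-linked level in the model 1 of the 10 estimates was below 0. Heterozygous livers had 9 estimates above wild type livers and 1, Clec4f at -0.74 ± 0.31 (adjusted p = 0.717), below, where 0.00669% of genes were called higher. Both heterozygous arrays also had a high Y-linked level, so genotype and sex cannot be told apart in this comparison either. With the Y-linked level in the model 3 of the 10 estimates were below 0, and the median was 0.23 in place of 0.39. Knockout-labelled livers had 8 estimates above heterozygous livers, where 0.221% of genes were called higher. N750F livers had 6 estimates above knockout-labelled livers, where 0% of genes were called higher and 49.9% of all genes had an estimate below 0. The 95% interval for Lyz2 between N750F and knockout-labelled livers was -0.12 to 0.78, so these arrays do not fix whether the level differed.

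Ordered by plain group means, which make no allowance for batch although both untreated arrays belong to batch 1, wild type DEN livers had the lowest level of Csf1r, Lyz2, Vsig4, Ctss, Marco, Cd68, Cd5l and C1qb. Clec4f was lowest in heterozygous livers and C1qa in knockout-labelled livers. Untreated livers had the highest mean of Csf1r, Lyz2, Cd5l, Cd68, Clec4f, C1qb and, by small margins, Ctss and Vsig4. With batch in the model Ctss was instead higher in N750F than in untreated livers by estimate, as given above, as was Vsig4. For Vsig4 the group means were 7.83, 8.75, 9.64 and 9.41 in wild type, heterozygous, N750F and knockout-labelled DEN livers and 9.68 in untreated livers, and the N750F, knockout-labelled and untreated means were closer together than the spread of the N750F arrays. For Marco the highest mean, 9.05, was that of the knockout-labelled livers, with 8.96 in N750F livers and 8.69 in untreated livers.

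Other genes of the same cells were read from lists. Of the Kupffer cell identity list, 10 genes that are no members were tested, and none was called in wild type livers after DEN, with a median of -0.41. Adgre1, which encodes F4/80, was at 6.55 and 6.70 in wild type DEN livers, against 7.35 and 7.50 in untreated livers, but its change of -1.01 was not called (adjusted p = 0.234). Timd4, the phosphatidylserine receptor of long-resident Kupffer cells, had an estimate of 0.28 in wild type livers (adjusted p = 0.728). In N750F livers Timd4 ranged from 6.60 to 7.97 with a median of 7.64, against 6.47 and 6.79 in untreated livers, and it rose by 1.24 ± 0.24 (adjusted p = 0.0150). It was the 1 gene of this list called in N750F livers.

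Of the pan-macrophage list, 20 genes that are no members were tested, and none was called in wild type livers, with a median of -0.62. Closest was Aif1, a calcium-binding protein of macrophages, at -1.88 (adjusted p = 0.0506). In heterozygous livers Aif1 fell by 1.92 (adjusted p = 0.0348) and Sirpa, the inhibitory receptor that binds CD47, fell by 1.38 (adjusted p = 0.0282). In N750F livers the list went both ways. Laptm5, a lysosomal membrane protein of blood cells, rose by 0.97 and Mrc1, the mannose receptor, by 0.86, whereas Unc93b1, which carries toll-like receptors to endosomes, fell by 1.57 (adjusted p = 0.0449, 0.0332 and 0.0282 in that order). Mrc1 is also made by sinusoidal endothelium.

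Lysosomal genes other than Ctss and Cd68 gave no call in wild type livers (15 tested, median -0.48). In N750F livers Ctsh, cathepsin H, fell by 1.63 and Grn, progranulin, fell by 1.30, while Lamp2, a lysosomal membrane protein, rose by 0.96 (adjusted p = 0.0175, 0.0273 and 0.0426 in that order). Hepatocytes carry lysosomes too, so these genes are not particular to macrophages. C1qc fell by 1.60 ± 0.35 in N750F livers (adjusted p = 0.0225) and by 1.40 over the mean of the 4 DEN groups (adjusted p = 0.0403). The ligand Csf1 changed by 0.05 in wild type livers (adjusted p = 0.961), beside the fall of its receptor Csf1r.

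Markers of other cell types moved beside these values in places. Among 7 recruited monocyte genes and 14 activation and cytokine genes none was called in wild type livers, with medians of -0.36 and -0.25. The monocyte receptor Ccr2 had an estimate of 0.33 and the cytokine Tnf one of -0.20. In N750F livers Spn, the leukocyte sialoglycoprotein CD43, fell by 0.87 (adjusted p = 0.0313), the 1 monocyte list gene called there.

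Of 6 neutrophil genes S100a8, a calgranulin subunit, fell in wild type livers. It was at 5.33 and 5.58 in wild type DEN livers, against 7.56 and 7.27 in untreated livers, a change of -2.37 ± 0.35 (adjusted p = 0.0109), and S100a9 changed by -1.54. S100a8 was also called lower in the heterozygous livers, by -2.18, and in the N750F livers, by -1.66. The mean level over the 6 neutrophil genes was 6.01 and 6.13 in wild type DEN livers, against 6.86 and 6.96 in untreated livers. The part of these cells in the marker values was not tested.

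Of 15 sinusoidal endothelial genes 1 was called in wild type livers, the orphan receptor Gpr182, at 7.06 and 7.14 in wild type DEN livers, against 9.03 and 9.29 in untreated livers. It fell by 2.24 ± 0.39 (adjusted p = 0.0249), while Stab2, a scavenger receptor of these cells, changed by -0.36. In the heterozygous livers Gpr182 and Cdh5, VE-cadherin, were called lower, by -1.76 and -1.59. The list mean was 7.33 to 7.65 in wild type DEN livers, against 8.05 to 8.11 in untreated livers. In N750F livers Gpr182 fell by 1.82, while Mrc1 rose, as given above, and Oit3 rose by 0.76 (adjusted p = 0.0474).

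No gene of the T and NK cell, hepatocyte, stellate, cholangiocyte, erythroid, dendritic and B cell, or muscle lists was called in wild type livers. Albumin lies among the brightest probe sets, where quantile normalization gives nearly the same value on every array, so its level cannot show a change. In heterozygous livers 1 gene each of the erythroid (Slc4a1, the red cell anion exchanger, -1.66), stellate (Reln, reelin, -1.71) and hepatocyte (Fga, a fibrinogen chain, -1.52) lists was called lower. The mean over 5 erythroid genes was 7.15 to 7.31 in wild type DEN livers, against 7.77 to 7.80 in untreated livers. The list means of 4 further cell types were also lower on both wild type DEN arrays than on both untreated arrays. Stellate cell genes were at 7.79 to 8.18 in wild type DEN livers, against 8.49 to 8.78 in untreated livers, and hepatocyte genes at 11.20 to 11.36, against 11.47 to 11.52. Cholangiocyte genes, 2 in number, were at 5.67 to 6.38 in wild type DEN livers, against 6.54 to 6.86 in untreated livers, and dendritic and B cell genes at 6.11 to 6.37, against 6.47 to 6.88. The median changes of these lists were -0.49, -0.18, -0.66 and -0.30 in that order, and the part of these cells in the marker values was not tested. Muscle genes were at 6.89 to 7.01 in wild type DEN livers, against 6.93 to 6.97 in untreated livers. T and NK cell genes were at 6.57 to 6.58 in wild type DEN livers, against 6.50 to 6.56 in untreated livers.

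**Figure D5:**
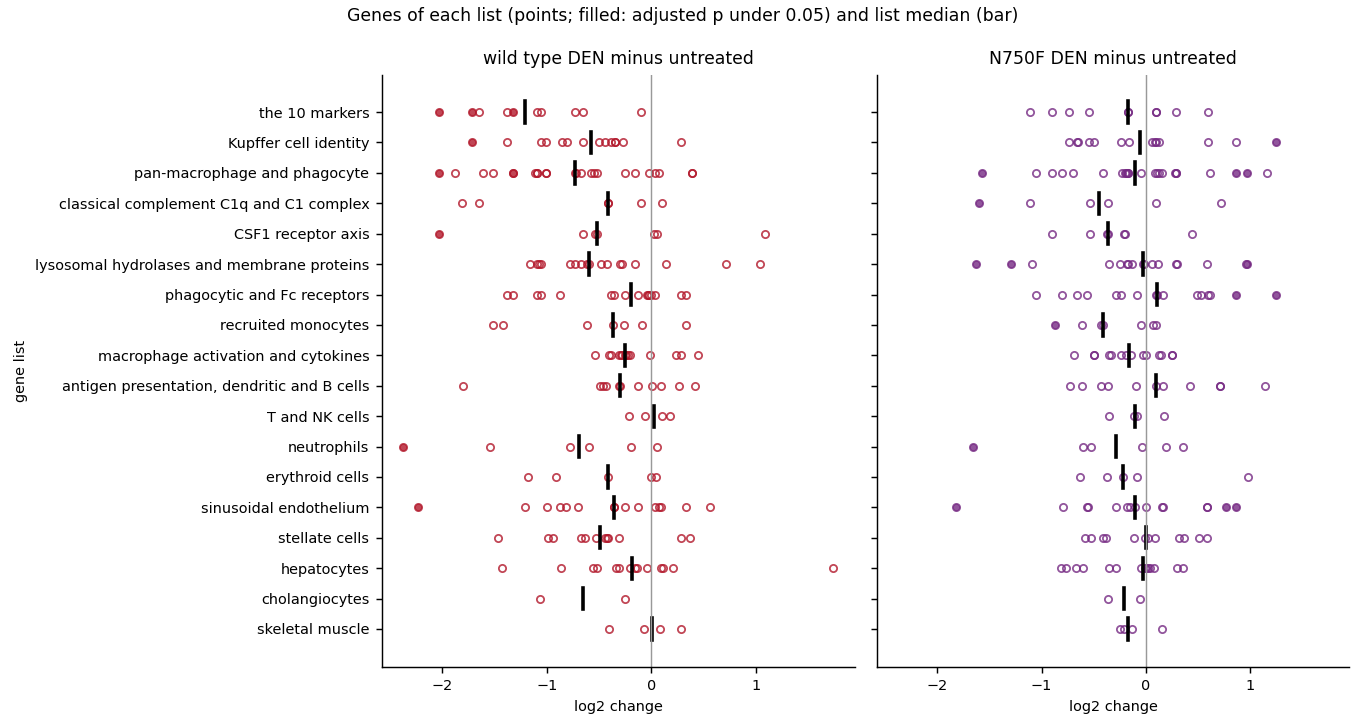
Log2 change against untreated livers (horizontal axis) of every tested gene of each list (rows), in wild type DEN livers on the left and N750F DEN livers on the right. Circles are genes, filled where the adjusted p is below 0.05, and black bars are list medians. The 10 markers have a median of -1.21 on the left and -0.17 on the right.

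Finally, the pattern of the markers over arrays was compared gene by gene. The measure was the mean absolute difference over the 13 arrays between a gene's level, centred on its own mean, and the centred mean of the 10 markers. Of the members Lyz2 (0.127) and Cd68 (0.161) followed the mean most closely, and Vsig4 (0.580), C1qa (0.537) and Ctss (0.479) least. The tested genes closer to the mean than the marker itself numbered 12802 for Vsig4, 11695 for C1qa, 9281 for Ctss, 7836 for Cd5l and 5319 for Marco. For the other markers they numbered from 0 for Lyz2 to 1764 for C1qb. Each marker is part of this mean, and the measure allows neither for batch nor for the size of a gene's changes. It therefore does not test whether the markers move together. The 8 genes outside the list with the smallest values were Ifi30 (0.150), Igf2bp3 (0.155), Tmsb4x (0.172), AB124611 (0.178), Rgp1 (0.179), Pygl (0.180), Gpatch1 (0.184) and Sirpa (0.184). Ifi30 encodes a thiol reductase of lysosomes, Tmsb4x the actin-binding thymosin beta 4, and Pygl liver glycogen phosphorylase. Ifi30 was at 8.51 and 8.20 in wild type DEN livers, against 9.40 and 9.79 in untreated livers, and none of the 8 was called in wild type livers after DEN.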

How the data were processed

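Per the labels' protocols, RNA of frozen livers was amplified by WT-Ovation Pico and hybridised to single-colour arrays. The authors deposited 1 linear intensity per probe set for 35556 probe sets on 13 arrays, and the submitters' processing notes name RMA and Affymetrix Expression Console 1.1 without a role. The genome build was not given in the sources used here. The deposited intensities were quantile-normalized, log2 of the value plus 16 was taken, and 14953 of 19938 genes were tested with limma 3.58.1 in R 4.3.3 (lmFit and eBayes over 13 arrays, 5 groups and an array batch term, 7 residual degrees of freedom). P-values were adjusted by Benjamini-Hochberg over all genes tested. Symbols came from the platform annotation. The code was tested on simulated data.

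The markers and lists were chosen with earlier results of these data known. Of 264 list entries 17 found no probe set. Named genes were all members, the called genes of smallest p in each list, defining markers of other cell types and the 8 genes of most similar pattern. Closest genes outside the rule (Adgre1, Timd4 and Aif1 in wild type livers, and Lyz1) were named after their values were seen. Nothing in the labels says that arrays of a group came from separate mice, so p-values measure the spread between arrays, whose number limits the precision. By the Y-linked levels given above, the untreated arrays came from different mice, as did N750F replicate 1 and the other N750F arrays. For other arrays of the same group this is not known. No 2 of the 78 pairs of arrays held identical values. In their deviations from the group means, same-numbered arrays correlated from 0.27 to 0.45 for numbers 3 and 4, which also lie in different batches, and from -0.13 to 0.13 for numbers 1 and 2. These deviations were not adjusted for batch, which numbers 3 and 4 follow, so the correlations cannot tell a shared replicate from a shared batch. In groups of 2 arrays the deviations mirror each other, so not all of these values are separate. The main fit holds the batch and no replicate block, whose values stand beside the calls it ends. Alternatives covered scaling, offset, filter, probe sets, batch, replicate block, sex, arrays fitted and each array left out.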

Additional observations from a re-analysis of the deposited data

Results flagged for a closer look

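Of the 10 markers, 2 had an N750F array that stood apart from the other 4 of its group, and it was the same array, N750F replicate 4. Csf1r was 6.43 on that array and 7.33 on the nearest other N750F array, a gap of 0.821 of the group's range. Cd68 was 7.04 there and 7.49 on the nearest other array, a gap of 0.800 of the range. Chance alone flags about 1 in 20 groups by this measure, and the N750F group was the 1 group large enough for it. The array belongs to batch 2 and had the lowest deposited median intensity of the 13, 48.2, and the part of either in these values was not tested. Without this array the number of markers called between N750F and wild type livers was 5, against 3 with it.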

How the results depend on the processing

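In wild type livers after DEN 3 markers were called, and 0 were called without quantile normalization, on batch 1 arrays alone, with the replicate block, with the Y-linked level as covariate or on the arrays of the 2 groups only, and 1 (Csf1r) with median scaling or an offset of 1; leaving out 1 array gave 0 to 3. Of the estimates, C1qa turned to 0.17 without a batch term and ran from -0.263 to 0.0560 with 1 array left out. In heterozygous livers 1 marker was called, and 0 were called without quantile normalization, with median scaling, an offset of 1, no filter, no batch term, batch 1 alone, the replicate block or the 2 groups only, and 3 with an offset of 50, with trend and robust fitting or without the knockout arrays; leaving out 1 array gave 0 to 3. Vsig4 turned to 0.0225 with median scaling and 0.170 with the Y-linked covariate there (-0.329 to 0.141 with 1 array left out), and C1qa to -0.000153 with the replicate block and -0.0457 with the covariate (-0.247 to 0.339). In N750F livers against untreated 0 were called, and 1 (C1qb) on the 2 groups alone or without the knockout arrays; leaving out 1 array gave 0 to 1. There Vsig4 turned to -0.0358 and Ctss to -0.231 without a batch term, C1qa to -0.00999 on batch 1 alone and -0.0100 on the 2 groups, and Marco to -0.0410 with the replicate block, while leaving out 1 array gave -0.0579 to 0.257 for C1qa, -0.342 to 0.537 for Marco and -0.417 to 0.0791 for Cd68. In knockout-labelled livers Ctss turned to 0.0332 with median scaling, and leaving out 1 array gave -0.227 to 0.0217 for Ctss, -0.0735 to 0.806 for Marco, -0.354 to 0.184 for Cd68 and -0.452 to 0.346 for C1qa. For the mean of the 4 DEN groups 2 were called, and 0 without quantile normalization, with median scaling, no batch term or the replicate block, 1 with an offset of 1 or on batch 1 alone, and 4 with an offset of 50; leaving out 1 array gave 0 to 3. Between N750F and wild type livers 3 were called, and 1 (Lyz2) without a batch term and 0 on batch 1 alone or with the replicate block; leaving out 1 array gave 0 to 5. C1qa turned to -0.00954 on batch 1 alone and Clec4f to -0.187 with the replicate block (-0.131 to 0.308 with 1 array left out). Between N750F and heterozygous livers 1 was called, and 0 with median scaling, no batch term, batch 1 alone, the replicate block or the Y-linked covariate; leaving out 1 array gave 0 to 1. The replicate numbers were shared by label only, and numbers 3 and 4 also follow the batch. Batch 1 alone, the 2 groups only and the arrays left out test fewer arrays, and the cause of the other changes was not tested.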
